A study of Mus musculus and Sus scrofa with 18 samples.

Results

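The mouse count table held 53 chemokine and chemokine receptor genes among 55357 genes, of which 36 encode ligands and 17 encode receptors. They were chosen by symbol alone, as Ccl, Cxcl, Ccr, Cxcr, Xcl or Xcr followed directly by a number, with an ending letter allowed and without pseudogenes or antisense genes. Cxcl11, a ligand of Cxcr3 whose mouse gene is annotated as a pseudogene, fell outside this rule and its values are given apart. RNA was counted in 3 striatum libraries from each of 3 groups, one library per mouse by the study's methods. Heterozygous HD 140Q-KI mice, from male carriers crossed to C57BL/6 J females, have exon 1 of 1 Htt copy replaced by the human exon with an expanded CAG stretch. All mice received AAV9 vectors by stereotaxic injection into both striata at 6 months of age, and the study's methods place collection 1.5 months after injection. WT mice received Ctrl gRNA alone, HD untreated mice received CasRx with Ctrl gRNA, and HD treated mice received CasRx with HTT gRNA 1 + 2 and HTT gRNA 3 + 4. CasRx is an RNA-cutting CRISPR nuclease, expressed here from the ubiquitous CAG promoter, and the gRNA vectors carry a U6 promoter and GFP. Both HD groups received CasRx and the WT mice did not, so the mutation and the nuclease cannot be told apart in a comparison with WT.

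Chemokines are small secreted proteins that set the direction in which leukocytes and other cells move. Each acts through G protein-coupled receptors, and most receptors answer to several ligands, so ligands and receptors are usually read together as axes. Some chemokines are made steadily in the healthy brain, among them Cxcl12 and Cxcl14, whereas others such as Cxcl9, Cxcl10 and Ccl5 are known as genes switched on by interferons and by nuclear factor kappa B in glia, vessels and infiltrating cells. Receptors such as Cxcr3 and Cxcr6 are carried by activated T cells. In bulk tissue, fewer cells of a type and less RNA per cell cannot be told apart.

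The libraries held 27184356 to 32102121 counts. Htt, counted over both alleles together, stood at 182 to 191 counts per 1000000 of the TMM-scaled library (CPM) in WT, 140 to 150 CPM in untreated and 130 to 140 CPM in treated mice, and the treated mice differed from the untreated mice by -0.10 ± 0.06 on the log2 scale (edgeR quasi-likelihood test, adjusted p = 0.942). The study's RT-qPCR measured mutant HTT mRNA and found it lower in treated than in untreated mice injected at this age. The counts here do not separate that transcript from the mouse allele. The striatal projection neuron list, 8 marker genes, summed to 4910 to 6509 CPM in WT, 1418 to 1738 CPM in untreated and 2360 to 2396 CPM in treated mice, so the labelled tissue was present in every library. Transcripts of 4 Y-linked genes gave 3435 to 5005 counts in the 3 WT mice and in untreated replicate 1, and 0 in the 5 other libraries. Treated and WT mice therefore differed in sex throughout, and sex cannot be told apart from group in that comparison. Untreated replicate 3 stood apart: it gave the highest of the 9 values for 18 of the 32 chemokine genes that could be tested, as it did for 17.3% of all 19463 genes tested. Each main count is given with and without that library.

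Of the 53 genes, 32 had enough counts to be tested and 21 did not. Ccl26, Cxcl15, Cxcl2 and Cxcr1 had no count in any library, and the other 17 untested genes had at most 131 counts over the 9 libraries. A gene was called changed where the unadjusted P was under 0.05 and the fold change at least 2, in a single edgeR fit over all 9 libraries. Values are log2 fold changes with their standard error, and adjusted p-values are Benjamini-Hochberg values over all 19463 genes. In untreated mice 13 of the 32 tested genes were higher than in WT and 0 were lower. Among all genes tested, 5.57% were called higher and 2.58% lower in that comparison. In treated mice 12 of 32 were higher than in WT and 0 lower, against 3.84% higher and 1.38% lower among all genes. Between treated and untreated mice 0 of 32 were called, against 0.771% of all genes. At an adjusted p under 0.05 the numbers were 8, 1 and 0, against 2.27% and 0.545% of all genes called higher in the WT comparisons and 0% called between treated and untreated mice. The filter keeps a gene that is counted in 1 group alone, so the tested genes include some that had to be high in a group to be tested at all.

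Over the 32 tested genes the median log2 fold change was 1.22 in untreated and 1.26 in treated mice against WT, where the medians over all genes were 0.02 and 0.00. Without untreated replicate 3 the untreated median was 0.66, and with sex as a covariate the medians were 0.44 in untreated and 0.29 in treated mice. It was -0.34 for treated against untreated mice, beside -0.01 over all genes. Of the 32, 30 lay above 0 in untreated and 29 in treated mice against WT, compared with 52.1% and 50.6% of all genes. The comparisons share their libraries and are not independent of each other. Ligands supplied 10 of the 13 higher genes of untreated mice and receptors 3, out of 24 ligands and 8 receptors tested. In treated mice the higher genes were 10 ligands and 2 receptors.

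**Figure D1:**
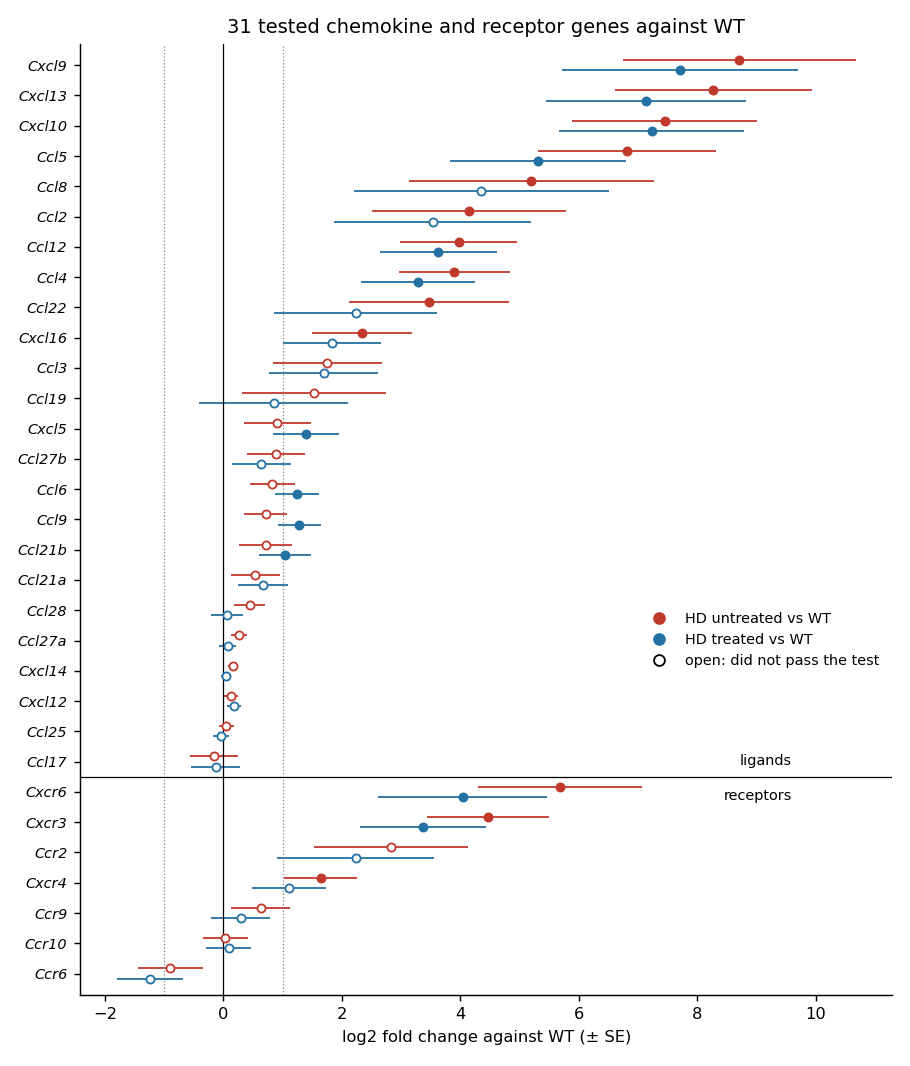
Log2 fold change against WT, with its standard error, for 31 of the 32 tested chemokine and receptor genes in HD untreated (red) and HD treated mice (blue), from 1 edgeR fit over 9 libraries. Filled points passed the test, open points did not, and dotted lines mark a 2-fold change. The ligands Cxcl9, Cxcl13, Cxcl10 and Ccl5 lie farthest to the right in both groups, and Ccr6 is the lowest point.

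The Cxcr3 axis, which draws activated T cells and NK cells into inflamed tissue, was nearly silent in WT striatum and was called higher in all 3 of its tested genes in both HD groups. Cxcl10 (ENSMUSG00000034855, chromosome 5) stood at 0.0756, 0.147 and 0 CPM in the 3 WT mice, 3.23, 4.30 and 32.3 CPM in the untreated mice and 3.95, 3.89 and 26.4 CPM in the treated mice. The HD groups lay wholly above WT and overlapped each other, and replicate 3 was the highest mouse of each. The change against WT was 7.45 ± 1.56 in untreated (adjusted p = 0.0198) and 7.23 ± 1.56 in treated mice (adjusted p = 0.0383). It was the only one of the 32 genes with an adjusted p under 0.05 in the treated mice.

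Cxcl9 (ENSMUSG00000029417, chromosome 5), a second interferon-gamma-inducible Cxcr3 ligand, gave 2 counts in all over the WT mice. Its level was 1.30, 4.06 and 30.0 CPM in untreated and 1.13, 2.60 and 14 CPM in treated mice. The fitted change was 8.71 ± 1.96 in untreated (adjusted p = 0.0251) and 7.71 ± 1.99 in treated mice (adjusted p = 0.0656). As a ratio of pooled counts that is 497-fold with a 95% counting interval of 137 to 4112 in untreated mice, and 245-fold with an interval of 67.5 to 2027 in treated mice. Of the 1041 untreated counts 883 came from replicate 3, and without that library the fitted change in untreated mice was 6.58 ± 1.57. No HD mouse overlapped WT, and the spread within each HD group was wide.

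The receptor Cxcr3 itself (ENSMUSG00000050232, chromosome X), carried by activated T cells, followed at far lower counts. It stood at 0.0756, 0.11 and 0 CPM in WT, 0.281, 0.806 and 3.16 CPM in untreated and 0.552, 0.857 and 0.581 CPM in treated mice. All HD values were above all WT values, and the treated mice were more alike than the untreated mice. The change was 4.46 ± 1.03 in untreated (adjusted p = 0.028) and 3.37 ± 1.06 in treated mice (adjusted p = 0.11). Cxcl11, outside the rule, gave 0, 0 and 2 counts in WT, 6, 5 and 55 in the untreated and 2, 14 and 38 in the treated mice.

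RefSeq gave a promoter window, 250 bases before to 50 bases after a gene's start in GRCm38.p6, for 39 of the 53 genes and 9 of the 13 that were higher in untreated mice. Matches to 3 motifs of 9 letters were searched on both strands, with N for any base. The core of the interferon-stimulated response element, GAAANNGAA, was present in the windows of 8 of the 39 genes, or 17.4% of their 46 windows, and in 8.56% of all 32851 promoter windows. The core bound by nuclear factor kappa B, GGANNTTCC, was present in 7 of the 39 genes, or 15.2% of windows, against 4.26% of all. The gamma-activated sequence, TTCNNNGAA, was present in 3 genes, or 6.52% of windows, against 8.3% of all. No matches overlapped each other. Among the 9 higher genes with a window, 3 held a match, namely Cxcl10, Cxcl9 and Ccl12. A match to at least 1 motif was also found in genes not called higher in untreated mice. These were Ccl1, Ccl17, Ccl19, Ccl3, Ccr2, Ccr3, Ccr6, Cxcl1, Cxcl2, Cxcl3, Cxcl14 and Cxcr1, so a match was not particular to the higher genes. Their 250 bases before the start are shown because these are the windows among the higher genes where a match was found, with Cxcl14, a steadily expressed ligand, for comparison, and with the matched letters in capitals.
Cxcl10: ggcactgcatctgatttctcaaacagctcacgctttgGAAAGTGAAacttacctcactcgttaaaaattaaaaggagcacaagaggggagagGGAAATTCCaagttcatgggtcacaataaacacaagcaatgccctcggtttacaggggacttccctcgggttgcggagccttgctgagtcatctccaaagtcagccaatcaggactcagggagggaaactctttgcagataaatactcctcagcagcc
Cxcl9: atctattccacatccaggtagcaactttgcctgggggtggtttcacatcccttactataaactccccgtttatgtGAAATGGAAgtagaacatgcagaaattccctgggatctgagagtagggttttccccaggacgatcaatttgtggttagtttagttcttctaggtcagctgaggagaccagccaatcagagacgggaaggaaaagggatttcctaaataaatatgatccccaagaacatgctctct
Ccl12: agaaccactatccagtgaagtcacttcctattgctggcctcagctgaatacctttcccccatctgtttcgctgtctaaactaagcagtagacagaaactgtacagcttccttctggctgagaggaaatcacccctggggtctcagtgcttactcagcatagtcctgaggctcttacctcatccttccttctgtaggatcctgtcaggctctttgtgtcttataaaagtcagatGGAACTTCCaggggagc
Cxcl14: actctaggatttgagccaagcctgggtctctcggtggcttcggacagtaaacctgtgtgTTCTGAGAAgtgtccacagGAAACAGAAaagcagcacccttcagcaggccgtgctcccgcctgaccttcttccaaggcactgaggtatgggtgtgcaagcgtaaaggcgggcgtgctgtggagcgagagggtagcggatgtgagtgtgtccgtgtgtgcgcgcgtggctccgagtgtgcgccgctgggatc
The Cxcl10 stretch is chr5:92348890-92349139 on the minus strand, with the interferon-stimulated response element core starting 213 bases and the nuclear factor kappa B core 158 bases before the gene's start. The Cxcl9 stretch is chr5:92328080-92328329 on the minus strand, with the response element core 175 bases before the start. The Ccl12 stretch is chr11:82101595-82101844 on the plus strand, with the nuclear factor kappa B core 17 bases before the start. The Cxcl14 stretch is chr13:56296552-56296801 on the minus strand, with a gamma-activated sequence 191 bases and a response element core 172 bases before the start. A match is a description of the letters alone, and the windows of Cxcl14, Ccl3, Ccr2 and Ccl19, which were not called in either HD group, held a response element core as well.

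Cxcl13 (ENSMUSG00000023078, chromosome 5), the ligand of Cxcr5 that gathers B cells, gave 2 counts over the WT mice and 36, 155 and 574 counts in the untreated mice. In CPM it stood at 1.26, 5.21 and 19.5 in the untreated and 0.919, 2.14 and 8.75 in the treated mice, all above WT. The fitted change was 8.27 ± 1.66 in untreated (adjusted p = 0.0168) and 7.13 ± 1.69 in treated mice (adjusted p = 0.051). The pooled count ratio was 365-fold (95% counting interval 101 to 3023) in untreated and 163-fold (44.9 to 1353) in treated mice. Cxcr5, its receptor on B cells and follicular T cells, had no count in WT, 0, 7 and 17 counts in untreated and 6, 3 and 6 in treated mice, too few to be tested. Against the limit of 3 counts over WT, pooled Cxcr5 counts were at least 7.64-fold higher in untreated and at least 4.46-fold in treated mice. These limits, like the counting intervals, leave out the spread between mice.

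Among the inflammatory CC ligands that recruit T cells and monocytes, Ccl5 and Ccl4 were higher in both HD groups. Ccl5 (ENSMUSG00000035042, chromosome 11), released by activated T cells, NK cells and glia, stood at 0.189, 0.147 and 0 CPM in WT, 1.51, 4.33 and 32 CPM in untreated and 1.20, 3.29 and 8.92 CPM in treated mice. Both HD groups were clear of WT, and untreated replicate 3 was far above every other mouse. The change was 6.81 ± 1.5 in untreated (adjusted p = 0.0235) and 5.31 ± 1.49 in treated mice (adjusted p = 0.0827). Ccl4 rose by 3.9 ± 0.94 in untreated (adjusted p = 0.0319) and 3.28 ± 0.96 in treated mice (adjusted p = 0.0926), from 4 counts over the WT mice to 68 and 47. Ccl3, its close relative, stood at 0.113 to 0.33 CPM in WT, 0.175 to 1.87 CPM in untreated and 0.398 to 1.32 CPM in treated mice, and did not pass the test in either.

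Ccr1, a receptor of Ccl3 and Ccl5, had no count in WT or in the first 2 untreated mice, 12 counts in untreated replicate 3 and 2 in each treated mouse.

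In the Ccr2 axis, which brings monocytes into the brain, Ccl12 was higher in both HD groups and Ccl2 passed the test in the untreated group. Ccl12 stood at 0, 0.294 and 0.199 CPM in WT, 1.51, 1.31 and 5.16 CPM in untreated and 0.981, 0.988 and 4.36 CPM in treated mice, with no overlap with WT. The change was 3.97 ± 0.99 in untreated (adjusted p = 0.0347) and 3.63 ± 0.99 in treated mice (adjusted p = 0.076). Ccl2 had 3, 3 and 0 counts in WT, 0, 18 and 101 in the untreated and 6, 12 and 64 in the treated mice, a change of 4.14 ± 1.64 in untreated mice (adjusted p = 0.131). Since untreated replicate 1 had no count, the untreated group overlapped WT. The Ccl2 call was lost without any of the WT mice (3.54 to 4.54) and without untreated replicate 3 (2.02 ± 1.60). Ccl7, the third ligand, had no count in WT, 0, 8 and 67 in the untreated and 6, 4 and 22 in the treated mice. Its pooled counts were at least 23.9-fold higher in the untreated group and at least 9.52-fold in the treated. These limits leave out the spread between mice, and untreated replicate 1 had no count. Ccr2, the receptor of inflammatory monocytes, had 2, 2 and 6 counts in WT, 2, 3 and 71 in the untreated and 6, 17 and 30 in the treated mice (adjusted p = 0.188 and 0.369), so that only untreated replicate 3 stood clear of WT in the untreated group.

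In the Cxcr6 axis, Cxcl16, a membrane-bound chemokine of macrophages and vessels, and Cxcr6, the receptor of tissue-resident T cells, were both higher in untreated mice. Cxcr6 stood at 0.0756, 0 and 0.0665 CPM in WT, 0.491, 0.571 and 6.90 CPM in untreated and 0.337, 0.791 and 1.42 CPM in treated mice, above WT in every HD mouse. The change was 5.68 ± 1.38 in untreated (adjusted p = 0.0327) and 4.04 ± 1.43 in treated mice (adjusted p = 0.146), where the call was lost without WT replicate 2 (3.52 ± 1.62) or treated replicate 3 (3.45 ± 1.55). Cxcl16 stood at 1.32, 1.95 and 1.23 CPM in WT, 1.58, 2.72 and 18.4 CPM in untreated and 2.60, 6.19 and 7.20 CPM in treated mice. Every treated mouse was above WT, yet the call fell on the untreated group (2.34 ± 0.84, adjusted p = 0.102), where replicate 1 lay within the WT range. Without untreated replicate 3 the Cxcl16 change was 0.52 ± 0.45 and no longer passed. It was also lost without WT replicate 1 (2.23 ± 1.01) or WT replicate 3 (2.21 ± 1.02).

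The other 3 genes called higher in untreated mice rested on the same library. Ccl22, a Ccr4 ligand of dendritic cells, had 6, 2 and 5 counts in WT, 12, 5 and 138 in the untreated and 2, 21 and 46 in the treated mice. Its change in untreated mice was 3.47 ± 1.35 (adjusted p = 0.127) and 0.90 ± 1.12 without untreated replicate 3. Ccl8, a ligand of Ccr8, had 2 counts over the WT mice, 0, 7 and 84 in the untreated and 0, 18 and 35 in the treated mice. The fitted change in untreated mice was 5.20 ± 2.07 (adjusted p = 0.133) and the pooled count ratio 43.5-fold (95% counting interval 11.7 to 364), and without untreated replicate 3 the change was 2.13 ± 2.14. Cxcr4, the receptor of Cxcl12 on most leukocytes, stood at 1.02, 0.697 and 1.43 CPM in WT, 1.05, 1.91 and 6.90 CPM in untreated and 1.72, 2.83 and 2.26 CPM in treated mice. Its change was 1.64 ± 0.62 in untreated mice (adjusted p = 0.118) and 0.50 ± 0.39 without untreated replicate 3. The Ccl22 and Ccl8 calls were also lost without any of the WT mice (3.14 to 3.79 and 4.64 to 7.94), and that of Cxcr4 without WT replicate 1 (1.60 ± 0.74) or WT replicate 2 (1.42 ± 0.72).

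**Figure D2:**
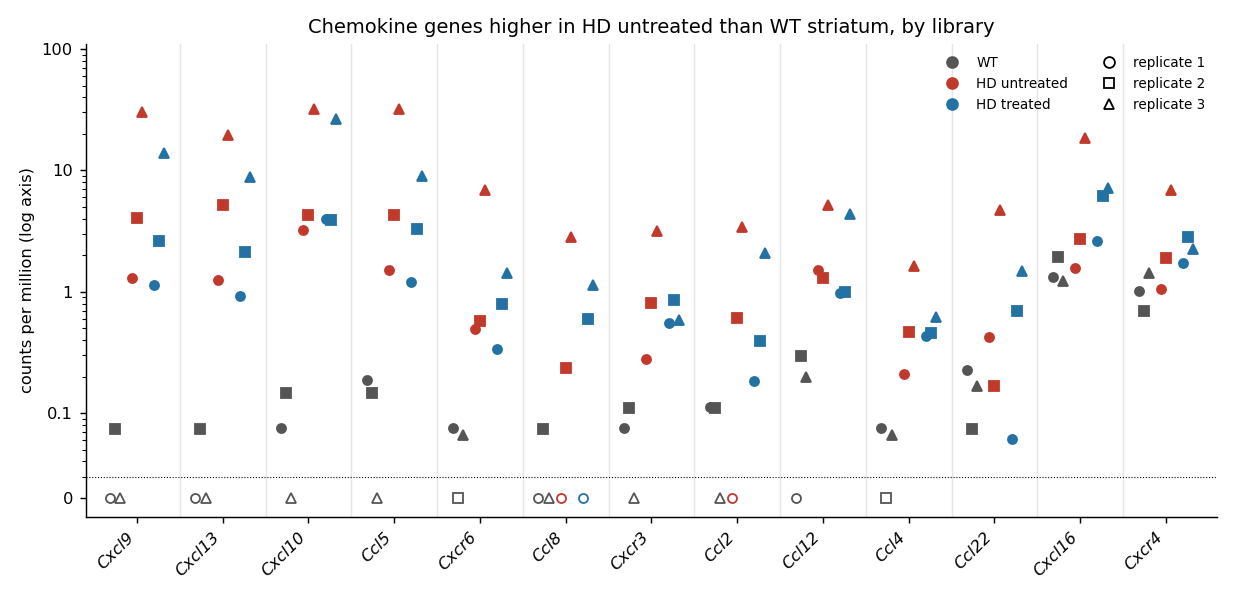
CPM on a log axis in each library for the 13 genes called higher in HD untreated than in WT mice, ordered by fold change. Marker colour gives the group and marker shape the replicate, and open markers under the dotted line are libraries with no count. Untreated replicate 3 (red triangle) is the highest untreated point in all 13 genes, and treated replicate 3 (blue triangle) the highest treated point in 11.

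Across the 13 genes, untreated replicate 3 carried 64.7% to 92.4% of the CPM summed over the untreated mice, with a median of 81.1%. The 13 genes together came to 3.16 to 3.74 CPM in WT mice, 12.8, 26.7 and 167 CPM in untreated mice and 14.1, 25.7 and 79.2 CPM in treated mice. Apart from the replicates 3, the HD mice of both groups were alike in sum, and treated replicate 3 stood higher. All HD mice were above WT, but the 13 genes were chosen for being higher in untreated mice than in WT. Without untreated replicate 3, 8 of 32 genes were called higher in untreated mice, where 3.7% of all genes were. These were the same 8 that had an adjusted p under 0.05 with all libraries, namely Cxcl10, Cxcl13, Ccl5, Cxcl9, Cxcr3, Ccl4, Cxcr6 and Ccl12. Their changes were smaller without that library, at 6.85 ± 1.45 for Cxcl13, 6.58 ± 1.57 for Cxcl9, 5.63 ± 1.20 for Cxcl10 and 4.70 ± 1.06 for Ccl5. The other 4 stood at 3.37 ± 0.88 for Cxcr6, 3.09 ± 0.82 for Cxcr3, 3.05 ± 0.92 for Ccl12 and 2.74 ± 0.80 for Ccl4, and their adjusted p-values in that fit were 0.0615, 0.064, 0.0902 and 0.0832. Without both replicates 3 the same 8 were called, of 30 tested, against 3.67% of all genes. Without untreated replicate 1 and its Y-linked counts, 19 of the 36 genes then tested were called higher, against 6.19% of all genes. That mouse, like the WT mice in its Y-linked counts, was above every WT mouse in 19 of the 32 tested genes, compared with 30.1% of all genes. It was above every WT mouse in 9 of the 13 genes and the lowest untreated mouse in 11 of them. The 13 were called in a fit that held this mouse, so the 9 follows in part from the choice of genes. With sex as a covariate, estimated from the untreated group alone, Ccl12, Ccl5, Cxcl10, Cxcl13 and Cxcl9 were called higher in untreated mice and Ccr6 lower, against 2.64% and 2.84% of all genes. In treated mice 0 genes were then higher and 1, Ccr6, lower, against 1.09% and 1.99% of all genes.

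The treated mice had 12 genes higher than WT, of which 8 were also called in the untreated mice, 66.7% of the treated and 61.5% of the untreated calls. The other 4 were Ccl6, Ccl9, Ccl21b and Cxcl5, all counted at low levels in every library. Ccl6, a mouse CC chemokine of macrophages and microglia, stood at 1.78, 0.991 and 1.60 CPM in WT, 1.89, 1.81 and 4.01 CPM in untreated and 2.42, 4.05 and 3.84 CPM in treated mice. Its change in treated mice was 1.24 ± 0.37 (adjusted p = 0.0995), and all HD mice lay above all WT mice. Ccl9, a related gene on chromosome 11, changed by 1.28 ± 0.36 (adjusted p = 0.0841), from 0.604, 0.844 and 0.897 CPM in WT to 2.36, 0.988 and 2.36 CPM in treated mice, with 1.12, 1.51 and 1.22 CPM in untreated mice. Both calls were kept in all 9 fits that left out 1 library. Without untreated replicate 3, whose spread enters the common fit, 19 of the 32 genes were called higher in treated mice, against 4.2% of all genes.

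Ccl21b, a Ccr7 ligand of lymphatic vessels and lymphoid stroma, and Cxcl5, a Cxcr2 ligand that attracts neutrophils, were weaker. Ccl21b stood at 3.06, 0.954 and 1.43 CPM in WT, 3.23, 3.19 and 2.48 CPM in untreated and 5.36, 3.69 and 2.10 CPM in treated mice, so that the groups overlapped (1.04 ± 0.44 in treated mice, adjusted p = 0.214). Its call was lost without WT replicate 2 (0.74) or 3 (0.90), untreated replicate 2 (1.04) and treated replicate 1 (0.68) or 2 (1.05). Ccl21a and Ccl21b are near-identical copies, as are Ccl27a and Ccl27b, and the split of reads between such copies is uncertain. Cxcl5 had 8, 4 and 16 counts in WT, 15, 25 and 15 in the untreated and 15, 45 and 21 in the treated mice (1.39 ± 0.56 in treated mice, adjusted p = 0.194). Its call was lost without WT replicate 1 (1.33), WT replicate 2 (1.06) or treated replicate 2 (0.78). Ccr6, the receptor of Ccl20, was the 1 tested gene whose treated mice all lay below all WT mice, at 0.567, 0.404 and 0.565 CPM in WT and 0.123, 0.362 and 0.162 CPM in treated mice (adjusted p = 0.237), with 0.105, 0.302 and 0.408 CPM in untreated mice. In all, 15 tested genes had every treated mouse above every WT mouse and 1 had every treated mouse below, against 13.4% and 15.1% of all genes, and 13 genes every untreated mouse, against 15% of all genes.

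The most abundant of the 53 genes did not pass the test in either HD group. Cx3cl1, which lies outside the symbol rule and is given with the other genes of the system, was more abundant still. Cxcl14, Ccl27a and Cxcl12 together made up 86.7% to 87% of the chemokine and receptor CPM in WT libraries, 48.9% to 84.8% in untreated and 63.4% to 80.4% in treated libraries. Cxcl14, a chemokine of neurons and other cells, stood at 84.4, 86.7 and 74.8 CPM in WT, 93.6, 90.2 and 90.6 CPM in untreated and 78.0, 91.4 and 83.1 CPM in treated mice. The untreated mice lay above WT by a small margin that did not pass the test (0.16 ± 0.08, adjusted p = 0.225), and the treated mice overlapped WT (0.04 ± 0.08, adjusted p = 0.827). Cxcl12, which acts through Cxcr4 in guiding neurons and leukocytes, stood at 52.1, 44.6 and 62.2 CPM in WT, 62.7, 59.3 and 51.1 CPM in untreated and 60.2, 61.3 and 58.9 CPM in treated mice. The groups overlapped (0.12 ± 0.12 in untreated, adjusted p = 0.544, and 0.18 ± 0.12 in treated mice, adjusted p = 0.414). Ccl27a, a Ccr10 ligand, stood at 78.0, 57.5 and 49.6 CPM in WT, 79.1, 70.9 and 72.3 CPM in untreated and 67.2, 65.4 and 62.3 CPM in treated mice. Its WT mice alone spanned most of that range (0.26 ± 0.14 in untreated, adjusted p = 0.25, and 0.07 ± 0.14 in treated mice, adjusted p = 0.803). Ccl25, the Ccr9 ligand, stood at 9.01 to 11 CPM in WT, 9.67 to 12 CPM in untreated and 9.21 to 10.3 CPM in treated mice, and its changes were 0.05 ± 0.13 and -0.04 ± 0.13.

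**Figure D3:**
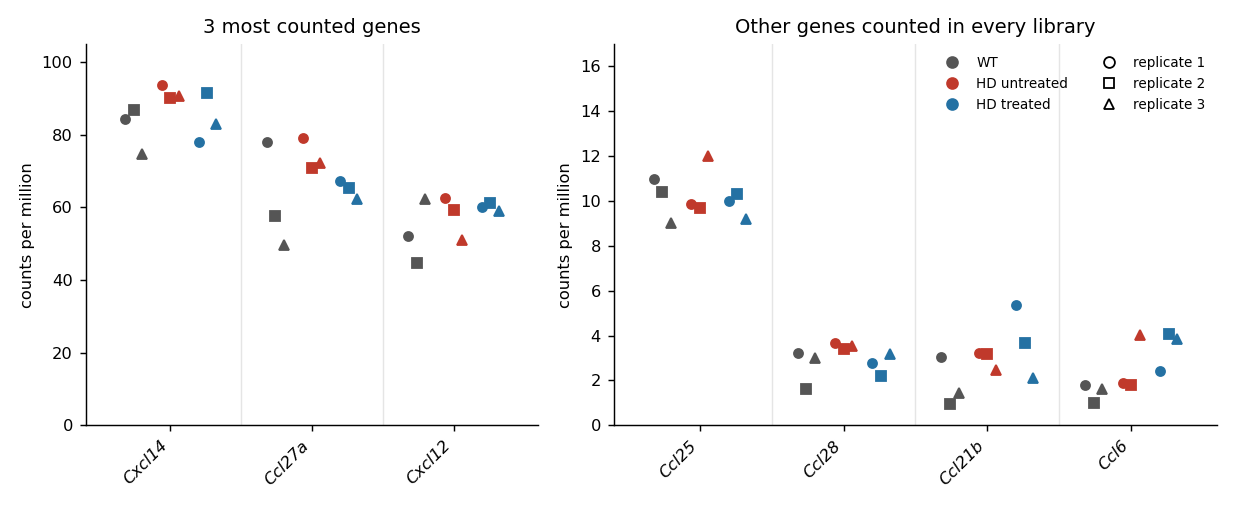
CPM in each library on a linear axis from 0 for the 3 most counted of the 53 genes (left) and 4 further genes counted in every library (right). Colours are groups and shapes replicates. Cxcl14, Ccl27a and Cxcl12 overlap or nearly overlap between groups at 44.6 to 93.6 CPM, and Ccl25 does so at 9.01 to 12 CPM.

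Further tested ligands and receptors showed no call. Ccl17, a Ccr4 ligand, had 8 to 16 counts in each of the 9 libraries. Ccl28, a mucosal Ccr10 ligand, stood at 1.61 to 3.21 CPM in WT, 3.39 to 3.68 CPM in untreated and 2.21 to 3.17 CPM in treated mice. The receptors Ccr9 and Ccr10 were at 0.227 to 0.919 CPM in all libraries, and Ccl27b and Ccl21a at 0.22 to 1.47 CPM. Ccl19, a Ccr7 ligand of dendritic cells, had 0 to 28 counts. None of these passed the test against WT.

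Among the 17 genes counted too rarely to be tested, untreated replicate 3 had the highest CPM in 12. The matching share among all untested genes was not computed, so that count has nothing to be read against. Xcr1, the receptor of cross-presenting dendritic cells, was counted in 2 libraries, with 45 counts in untreated replicate 3 and 12 in treated replicate 3. Its ligand Xcl1, released by T and NK cells, had 2, 0 and 0 counts in WT, 4, 2 and 45 in the untreated and 6, 4 and 23 in the treated mice, a pooled ratio to WT of 24.4 (95% counting interval 6.41 to 207) in untreated and 14.7 (3.76 to 127) in treated mice. Ccr7, the lymph node homing receptor, had 2, 8 and 2 counts in WT, 0, 7 and 96 in the untreated and 0, 3 and 13 in the treated mice. Ccr8, found on regulatory and resident T cells, had no count in WT, 0, 1 and 33 in the untreated and 4, 9 and 5 in the treated mice. Against the limit of 3 counts over WT, its pooled counts were at least 10.8-fold and at least 5.35-fold higher. These limits leave out the spread between mice, and untreated replicate 3 gave 33 of the 34 untreated counts. Ccr4 had 10 counts in untreated replicate 3, 2 and 7 in treated replicates 2 and 3, and 0 elsewhere. The untested neutrophil ligands and receptors were near 0, with 21 counts of Cxcl1, 9 of Cxcl3 and 3 of Cxcr2 over all libraries. Cxcl5, the Cxcr2 ligand that was tested, had 164 counts. The Ccr3 genes of eosinophil attraction did not follow the others: Ccl11 had 0, 4 and 8 counts in WT, 0 in all untreated and 2, 2 and 4 in treated mice, Ccl24 18 counts in all, none in treated mice, and Ccr3 20 counts in all. Ccl1, Ccl20 and Cxcl17 had 8, 3 and 7 counts in all.

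The number of the 53 genes with at least 1 count was 28 to 34 in WT, 33, 40 and 44 in untreated and 38, 45 and 42 in treated libraries, at similar depth. A count of 1 occurred in 2 of the library values of these genes and a count of 2 in 34, and whether a read pair was counted as 2 is not stated in the sources used here, so the counting intervals may be too narrow.

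By genomic location, chromosome 11, with its cluster of CC chemokines, held 14 of the 53 genes, 10 of them tested, of which 6 were higher in untreated and 5 in treated mice. On chromosome 5, with most of the CXC ligands, 4 of 10 genes were tested, and 3 were higher in untreated and 4 in treated mice. Of the 10 receptors on chromosome 9, 4 were tested and Cxcr6 was called in both groups. On chromosome 4, 5 of 5 genes were tested, none higher in untreated and 1, Ccl21b, in treated mice. Over all chromosomes, 5.57% of all tested genes were higher in untreated and 3.84% in treated mice. The share of all genes called on each chromosome was not computed, and an effect of location was not tested.

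Treatment was compared directly with its own control, treated against untreated mice, to ask whether HTT gRNAs with CasRx altered chemokine expression. Of the 32 genes 0 were called, 0 had an unadjusted P under 0.05 at any fold by edgeR, where 5.5% of all genes did, and DESeq2 called 0. With sex as a covariate 2 of the 32, Cxcr3 and Cxcr6, were called lower in treated mice. The share of all genes called in that fit is not given here, so this count has nothing to be read against. The 5 genes with the smallest P were Cxcr6 at -1.64 ± 0.97 (adjusted p = 0.931), Ccl9 at 0.56 ± 0.35 (adjusted p = 0.948), Cxcl14 at -0.12 ± 0.08 (adjusted p = 0.961), Ccl5 at -1.5 ± 1.02 (adjusted p = 0.967) and Ccl28 at -0.38 ± 0.26 (adjusted p = 0.974). The error of Cxcr6 and of Ccl5 was about as large as a 2-fold change, and that of Cxcl14 far smaller. In 2 genes, Ccl27a and Ccl28, all treated mice lay below all untreated mice, against 8.83% of all genes, and in 0 genes all lay above, against 6.92%.

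The mean CPM of all 13 genes that were higher in untreated mice was lower in treated than in untreated mice, but these genes were chosen for being high in the untreated mice, so this count carries no weight for the direction. Without the replicates 3 of both groups, it was lower in 5 of the 13. Over the 32 tested genes, 23 fold changes were below 0 with all libraries, and 12 of the 30 then tested without both replicates 3. Without untreated replicate 3 alone, 7 of 32 were below 0, the median was 0.54, and 3 genes, Ccl3, Ccr2 and Cxcl16, were called higher in treated mice, where 0.928% of all genes were. In that fit Ccl5 stood at 0.61 ± 0.79 and Cxcr6 at 0.67 ± 0.65. Without untreated replicate 1, which left only HD mice with no Y-linked counts, Ccr7, Cxcr3 and Cxcr6 were called lower in treated mice, where 0.671% of all genes were, with Cxcr6 at -2.12 ± 0.89. Without treated replicate 3, Cxcl13 was called lower, and the share of all genes called in that fit is not given here. Without both replicates 3, 0 were called, where 0.656% of all genes were higher and 0.371% lower. The direction of the treated against untreated difference thus depended on which mice were compared.

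**Figure D4:**
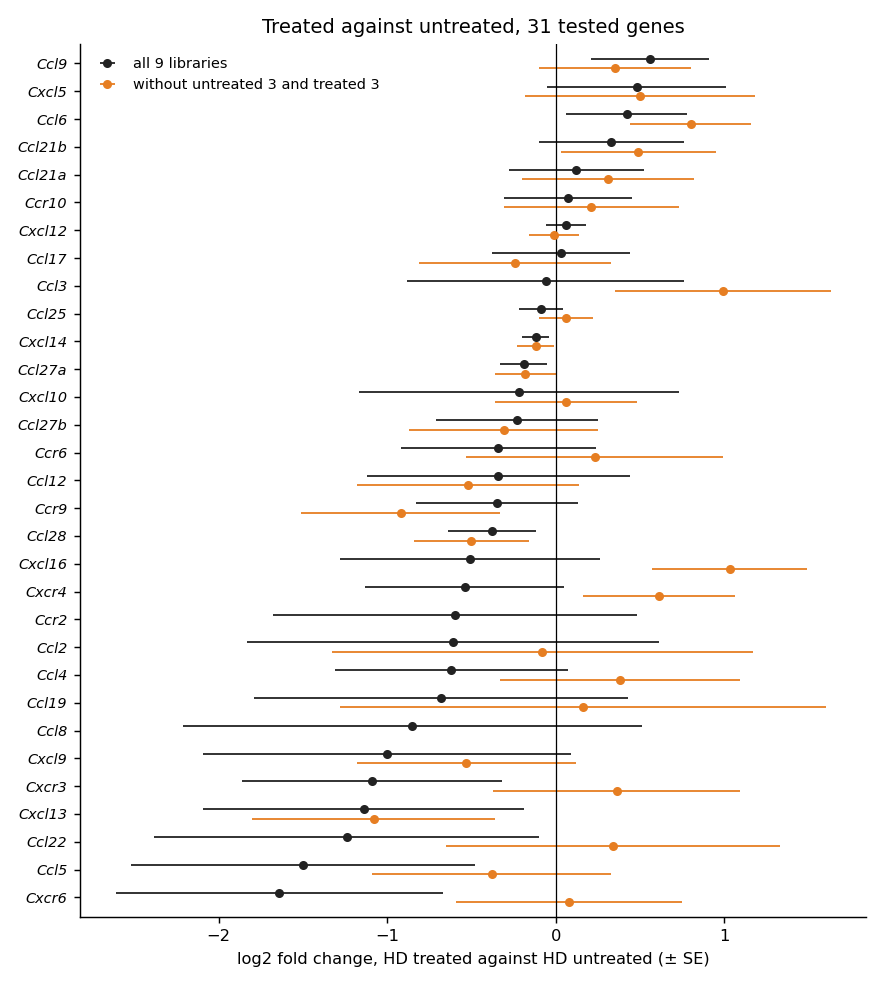
Log2 fold change of HD treated against HD untreated mice, with its standard error, for 31 of the 32 tested genes, with all 9 libraries (black) and without untreated replicate 3 and treated replicate 3 (orange, 29 genes shown of 30 tested). With all libraries 23 of 31 points lie below 0, and 12 of 29 do without both replicates 3.

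Genes outside the symbol rule but of the same system were read beside them. Of 10 further chemokine genes, 7 were tested and 1 was higher in untreated and 2 in treated mice. Ccrl2, a receptor that presents chemerin without signalling, changed by 2.06 in untreated (adjusted p = 0.0295) and 1.43 in treated mice (adjusted p = 0.13), and the scavenger Ackr4 by 1.40 in treated mice (adjusted p = 0.134). Ackr4 was also called between the HD groups, at 1.33 ± 0.47 in treated against untreated mice (adjusted p = 0.886), with 0.552, 0.428 and 0.937 CPM in treated and 0.386, 0.134 and 0.238 CPM in untreated mice, and it was the 1 gene of this list called there. Cx3cl1, the neuronal chemokine that acts on microglia, stood at 784 to 878 CPM in WT, 571 to 668 CPM in untreated and 552 to 604 CPM in treated mice, all HD mice below all WT mice, a change of -0.44 in untreated mice (adjusted p = 0.0183) that was under the fold threshold. The list summed to 875 to 965 CPM in WT, 676 to 759 CPM in untreated and 671 to 728 CPM in treated mice, with Ccr1l1 at 0 in all WT mice. Of 20 genes that carry signals from chemokine receptors, 7 were higher and 0 lower in each HD group. Among all genes 5.57% were higher in untreated and 3.84% in treated mice. The 7 included Rgs1, Rac2, Dock2, Was and Vav1, which are expressed mainly in leukocytes. Under the fold threshold, Elmo1 stood at -0.65 (adjusted p = 0.00547) and Prkcb at -0.42 (adjusted p = 0.0236) in untreated mice. In both genes all HD mice lay below all WT mice, as in Tiam1 and Grk6. These signalling genes summed to 1291 to 1339 CPM in WT, 1207 to 1289 CPM in untreated and 1168 to 1178 CPM in treated mice. Rgs1 changed by 4.66 (adjusted p = 0.018) and Rac2, a GTPase of blood cells, by 2.32 (adjusted p = 0.0412) in untreated mice.

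Of 16 cytokines and transcription factors that induce chemokine genes, 11 were tested, and 6 were higher in untreated and 4 in treated mice, with none lower. Among all genes 5.57% were higher in untreated and 3.84% in treated mice. Irf7, a factor of the interferon response, stood at 1.36, 1.87 and 1.26 CPM in WT, 9.23, 15.8 and 83.4 CPM in untreated and 6.40, 9.52 and 41.0 CPM in treated mice (4.59, adjusted p = 0.0246 in untreated mice). It was highest in untreated replicate 3 and next in treated replicate 3, as were Cxcl9, Cxcl10 and Cxcl13. The inducing cytokine Ifng had no count in WT, 0, 0.134 and 0.679 CPM in untreated and 0.0919, 0.0659 and 0.0969 CPM in treated mice, and Ifnb1 had no count in WT. The nuclear factor kappa B genes Nfkb1, Nfkb2, Rela, Relb and Nfkbia did not pass the test in either group.

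Some markers of other cell types moved with the chemokine genes and others did not, and their part in the result was not tested. All 11 T cell markers were tested. Untreated mice had 10 of them higher than WT and 1 lower, and treated mice had 6 higher and 1 lower. The whole list summed to 72.5 to 83.6 CPM in WT, 35.2 to 110 CPM in untreated and 46.2 to 59 CPM in treated mice, since it is dominated by Cd4, the 1 lower gene, at 62.6 to 79.8 CPM in WT. Without Cd4 the sum was 3.46 to 9.86 CPM in WT, 17, 18.7 and 95.4 CPM in untreated and 13.7, 18.6 and 27.5 CPM in treated mice. Cd3d and Cd3g, parts of the T cell receptor complex, were at 0 in all WT mice, and Cd3e, Cd3d and Cd3g together came to 0.737, 2.12 and 24.6 CPM in untreated and 1.87, 3.33 and 5.23 CPM in treated mice. Trac, of the receptor's alpha chain, changed by 4.75 in untreated mice (adjusted p = 0.0307), and Cd8a went from 0, 0 and 0.133 CPM in WT to 1.16, 2.75 and 19.1 CPM in untreated and 0.797, 1.32 and 4.55 CPM in treated mice.

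**Figure D5:**
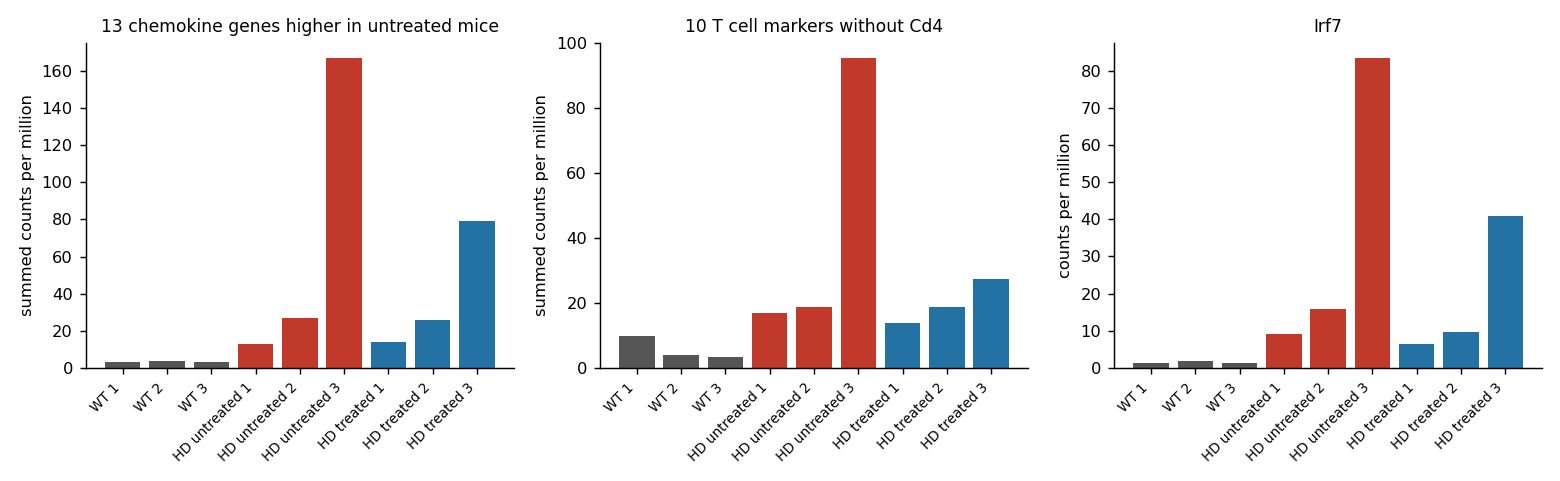
Bars from 0 give, for each of the 9 libraries, the summed CPM of the 13 chemokine genes higher in untreated mice, the summed CPM of 10 T cell markers without Cd4, and the CPM of Irf7. Untreated replicate 3 is the tallest bar in all 3 panels, at 167, 95.4 and 83.4 CPM, and treated replicate 3 comes next in each.

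Of 7 NK cell markers, 3 were tested and 2 were higher in untreated and 0 in treated mice, with sums of 0.227 to 0.734 CPM in WT, 0.947 to 7.44 CPM in untreated and 0.153 to 3.23 CPM in treated mice, and Ncr1 at 0 in WT. Of 7 B and plasma cell markers, 4 were tested, and 3 were higher in untreated and 4 in treated mice. They summed to 1.25 to 1.85 CPM in WT, 8.52, 40.6 and 100 CPM in untreated and 59.3, 122 and 71.8 CPM in treated mice, most of it Jchain of antibody-secreting cells, with Ms4a1 at 0 in WT. The treated and untreated mice overlapped in that sum, and the highest value was a treated mouse. Of 7 microglia markers, all tested, 1, Aif1, was higher in each HD group, with sums of 270 to 301, 311 to 591 and 379 to 447 CPM in WT, untreated and treated mice. Of 7 monocyte and border macrophage markers, 5 were tested and 1, Ly6c2, was higher in each. Their sums were 7.78 to 9.25 CPM in WT, 5.89, 7.49 and 17.7 CPM in untreated and up to 16.1 CPM in treated mice, so that the first 2 untreated mice lay below every WT mouse. The median change of this list in untreated mice was -0.73, and the border macrophage gene Cd163 stood at -0.85 (adjusted p = 0.0201), under the fold threshold, with all untreated mice below all WT mice. In treated mice the median was -0.11, and Cd163 stood at -0.11 (adjusted p = 0.765) and overlapped WT. Between treated and untreated mice Cd163 changed by 0.74 (adjusted p = 0.736), with all treated mice above all untreated mice. Of 6 dendritic cell markers, 5 were tested and 2, Itgax and Itgae, were higher in untreated and 1, Itgax, in treated mice, with sums of 14.4 to 20.6, 22.4 to 44.3 and 21 to 27.9 CPM. Of 6 neutrophil markers 0 were tested, the sums were at most 0.499 CPM, and Ly6g and Retnlg were at 0 in all libraries.

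Of 5 astrocyte markers, 1, Gfap, was higher in each HD group, with sums of 796 to 879, 909 to 1387 and 937 to 1262 CPM in WT, untreated and treated mice. None of 5 endothelial markers was called, but the sums were 104 to 128, 145 to 182 and 158 to 168 CPM, with all HD mice above all WT mice. Under the fold threshold, Cldn5 stood at 0.79 in untreated (adjusted p = 0.00708) and 0.94 in treated mice (adjusted p = 0.00563). Pecam1, Cdh5, Flt1 and Kdr stood at 0.38 to 0.43 in untreated and 0.35 to 0.58 in treated mice. Of 6 fibroblast and meninges markers, 1, Igf2, was lower in untreated mice, with sums of 33.9 to 167, 29.2 to 45.2 and 39 to 102 CPM. All 6 choroid plexus markers were lower in untreated mice and 0 were called in treated mice, but they ranged from 65.4 to 3753 CPM among the WT mice alone, with 36.2 to 185 CPM in untreated and 38.3 to 1262 CPM in treated mice. All 5 red blood cell markers were lower in treated and 0 in untreated mice, with 107 to 190, 3.09 to 67.3 and 2.77 to 51.5 CPM. Of the 8 striatal projection neuron markers, 7 were lower in each HD group.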

How the data were processed

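The authors deposited raw read counts per Ensembl gene for 9 mouse striatum libraries, made with a poly-T primed 3′ mRNA kit. The study's methods name STAR and edgeR, whereas the submitters' processing notes list Trimmomatic 0.39, FastQC 0.11.9, HISAT2 2.2.1 and featureCounts 2.0.1 with the pig build Sscrofa11.1. The mouse build, and whether duplicate molecules were collapsed, are not given in the sources used here. Outside 378 genes that held 1 in every library, a count of 1 occurred 14976 times and a count of 2 occurred 17206 times. Intervals and at-least folds rest on counts pooled over the mice of a group. They cover counting error only, not the spread between mice. The pig libraries were not used here, and 0 sample columns were left unmapped.

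Names were matched for 52081 of 55357 gene IDs, holding 99.8% of counts. Genes were filtered with filterByExpr, scaled by TMM and fitted over all 9 libraries with edgeR 4.0.16 quasi-likelihood tests (R 4.3.3, 6 residual degrees of freedom). A gene was called at an unadjusted P under 0.05 and a fold of at least 2, the rule of the study's figures, while its methods text gives a P of 0.01, which was run as an alternative. Adjusted p-values are Benjamini-Hochberg over 19463 genes, and limma 3.58.1 supplied shared functions. A level against a group without counts was set against a limit of 3 counts over that group. The script was tested on simulated counts with known changes.

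Genes were named where they were among the 20 most counted, had an adjusted p under 0.05, were among the 5 smallest P between treated and untreated mice, or led their receptor axis. Other genes given with values were chosen after their values were seen. The members and all gene lists were chosen with earlier results of these data known. Alternatives were library-size scaling, DESeq2 1.42.0, other filters, fits of the compared groups alone, a replicate block, a sex covariate, other thresholds and leaving out libraries, of which leaving out both replicates 3 was added after the data were seen. Over all tested genes, same-numbered mice of different groups deviated together with correlations of -0.0805 to 0.236, and the numbers were not taken as pairs. The highest, 0.191 and 0.236, were between treated and untreated replicates 1 and 3. In 14 of the 32 tested chemokine genes replicate 3 was the highest mouse of both HD groups. Whether the numbers mark a shared batch was not tested. Values of some single genes are not reported here.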

Additional observations from a re-analysis of the deposited data

How the results depend on the processing

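Of the 13 genes higher in untreated than in WT mice, 8 remained when only those groups were fitted (23 genes tested), 8 at an adjusted p under 0.05, 8 at P under 0.01 and 8 without both replicates 3. With a covariate for sex 6 were called, 5 of them higher. The 12 of treated mice fell to 1 at an adjusted p under 0.05 and to 1, a lower one, with the sex covariate. Treated against untreated, 3 were called with no expression filter, 2, Cxcr3 and Cxcr6, lower, with the sex covariate and 1, Cxcl13, lower, with the replicate block. The shares of all genes called in these fits between treated and untreated mice are not given here, so these counts have nothing to be read against. Fits leaving out 1 library tested 32 or 36 genes and gave 8 to 19, 9 to 19 and 0 to 3 calls in the 3 comparisons. Some of these calls were of genes untested in the main fit, such as Ccl7, Xcl1 and Xcr1. The medians in these fits were 0.66 to 2.15, 1.13 to 1.57 and -0.69 to 0.54. With no filter the medians against WT were 2.2 in untreated and 1.69 in treated mice, and with the sex covariate they were 0.44 and 0.29. DESeq2 called 12, 12 and 0, with no p for Cxcl10, and library-size scaling called 13, 13 and 0.

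The sex covariate turned Ccl2 to -4.17, Ccl8 to -2.73 and Ccl25 to -0.04 in untreated mice. Without both replicates 3, Ccl25 stood at -0.05 in untreated and Ccl25 at 0.01 in treated mice, and Cxcr6 at 0.08 between treated and untreated. Library-size scaling put Ccl25 at 0.02 in treated mice. With 1 library left out, Ccl25 ranged from -0.05 to 0.10 in untreated mice, and Ccl25 from -0.11 to 0.01, Ccl27a from -0.05 to 0.27 and Cxcl14 from -0.02 to 0.09 in treated mice. For treated against untreated mice, Ccl5 ranged from -2.48 to 0.61 and Cxcr6 from -2.22 to 0.67. The cause was not tested. With a replicate block, 14, 16 and 1 genes were called and the medians were 1.12, 1.25 and -0.19. For 21 of the 53 genes the depth was too low for a test.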
